A study of Homo sapiens with 6 samples.

Results

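Semaphorins, ephrins and their receptors were examined in HK-2, a line of immortalised epithelial cells from the human kidney proximal tubule, with or without TGF-β1. The members were 53 genes chosen by symbol, each taken from its row on a primary chromosome, out of 41497 named entries in the deposited tables. They were 20 semaphorins, 11 receptors of semaphorins (9 plexins and 2 neuropilins), 8 ephrins and 14 Eph receptors. RNA-seq was performed on 3 control and 3 TGF-β1 libraries at 24 hours, both from wild-type cells per the labels. The study's general culture methods give a TGF-β dose of 5 ng/mL in medium without serum. The labels of these libraries state no dose, and the serum of the control cells was not given in the sources used here. The line is a single established cell line, and nothing in the labels says whether the 3 libraries of a group came from separate cultures. The p values therefore measure the spread between these libraries, which may be technical.

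Semaphorins are secreted or membrane-bound ligands that act through plexins, and secreted class 3 semaphorins mostly need a neuropilin as the binding co-receptor. Plexins pass the signal on by switching off small GTPases and remodelling the cytoskeleton, which repels or attracts a growing axon or a migrating cell. Ephrins are ligands that stay attached to the cell surface, and Eph receptors, the largest family of receptor tyrosine kinases, read them on a neighbouring cell. Signals run in both directions across that contact and sort cells into separate territories. In the kidney these families are known from ureteric bud branching, glomerular filtration and blood vessels.

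Of the 53 members, 41 had enough reads to be tested across all 14860 genes that passed the count filter. At an adjusted p under 0.05 (edgeR quasi-likelihood F test), 27 of the 41 differed between groups, 11 higher after TGF-β1 and 16 lower. Over all genes tested, 44.3% were called, 22.2% higher and 22.1% lower. Among semaphorins 12 of 15 tested members were called, 2 higher and 10 lower, with a median log2 fold change of -0.58. Among ephrins 2 of 8 were called, both higher, with a median of 0.28. The receptors were mixed in direction. Plexins and neuropilins had 4 higher and 4 lower of 10 tested, with a median of -0.09, and Eph receptors had 3 higher and 2 lower of 8 tested, with a median of -0.02. The median over all genes tested was 0.01. With total counts only in place of TMM scaling, 2134 of all genes were called higher and 4590 lower. The calls were then 2 higher and 11 lower for semaphorins, 4 and 4 for plexins and neuropilins, 1 and 1 for ephrins and 3 and 3 for Eph receptors. CPM values (counts scaled to the TMM-adjusted library size) of the 2 groups did not overlap for 29 of the 41 members, against 55.6% of all genes tested.

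A change of at least 2-fold at the same threshold was called for 10 members, 5 higher and 5 lower, against 9.06% of all genes tested (3.68% higher and 5.38% lower). SEMA5A, SEMA3B, SEMA3E, PLXNB2 and EPHA3 fell, and EPHA5, PLXNA2, PLXND1, EFNA2 and EPHA4 rose. Tested against the 2-fold limit itself (edgeR glmTreat), 4 of these were called, namely SEMA5A, SEMA3B, PLXNB2 and EPHA5. EPHA5 passed the count filter only through the TGF-β1 libraries, where it is high, so neither of its calls is support for its class. EPHA3 reached the count of the filter in 3 control libraries and 1 TGF-β1 library, and PLXNA2 in 2 control and 3 TGF-β1 libraries. Their passing also leaned on the group where they are high, so these calls are not support for their classes.

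**Figure D1:**
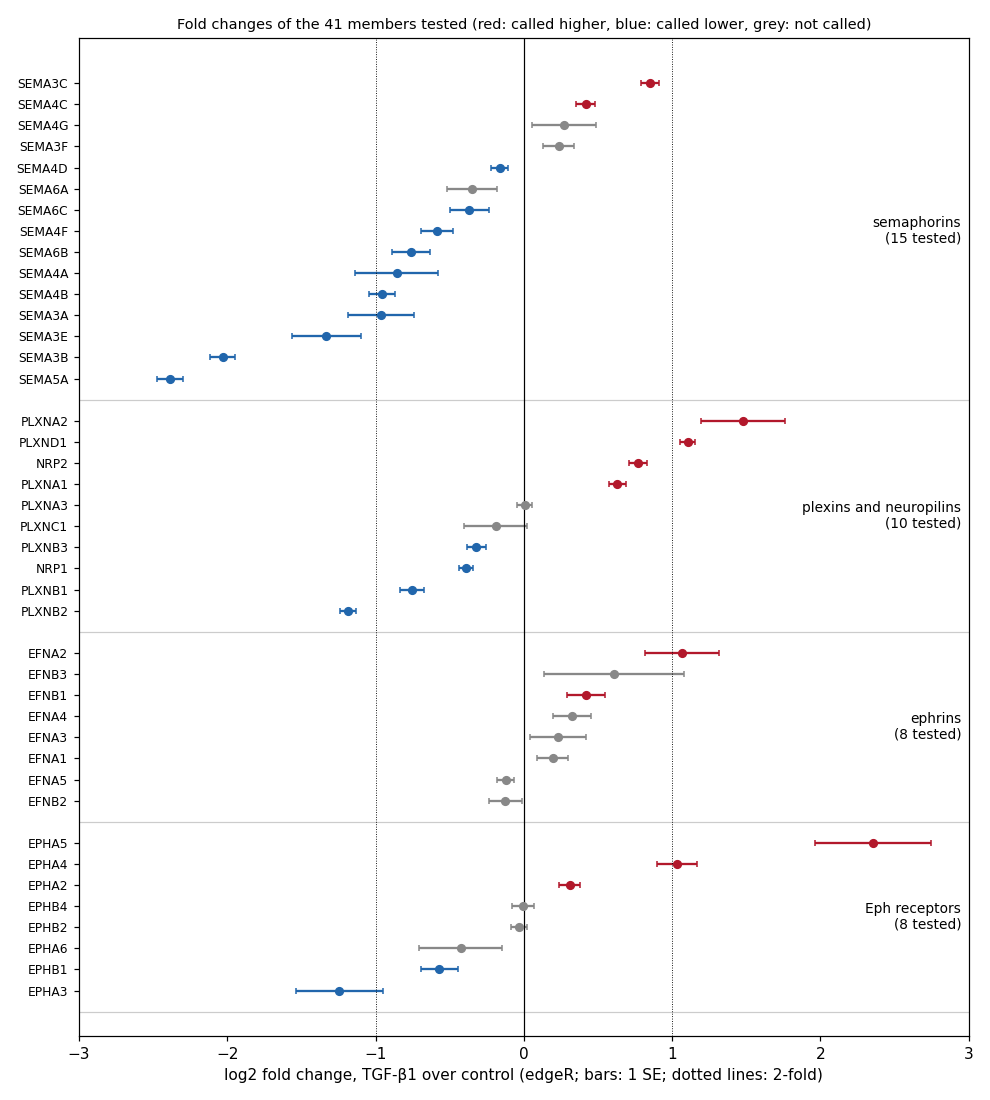
Log2 fold change of TGF-β1 over control (x axis) for the 41 members tested, grouped by class on the y axis, with bars of 1 SE from edgeR. Red points were called higher and blue points lower at an adjusted p under 0.05, grey points were not called, and dotted lines mark 2-fold. Most semaphorins lie left of 0, and the 3 PLXNB plexins lie left while PLXNA1, PLXNA2 and PLXND1 lie right. PLXNA3 lies at 0.00 and PLXNC1 at -0.19, neither called.

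**Figure D2:**
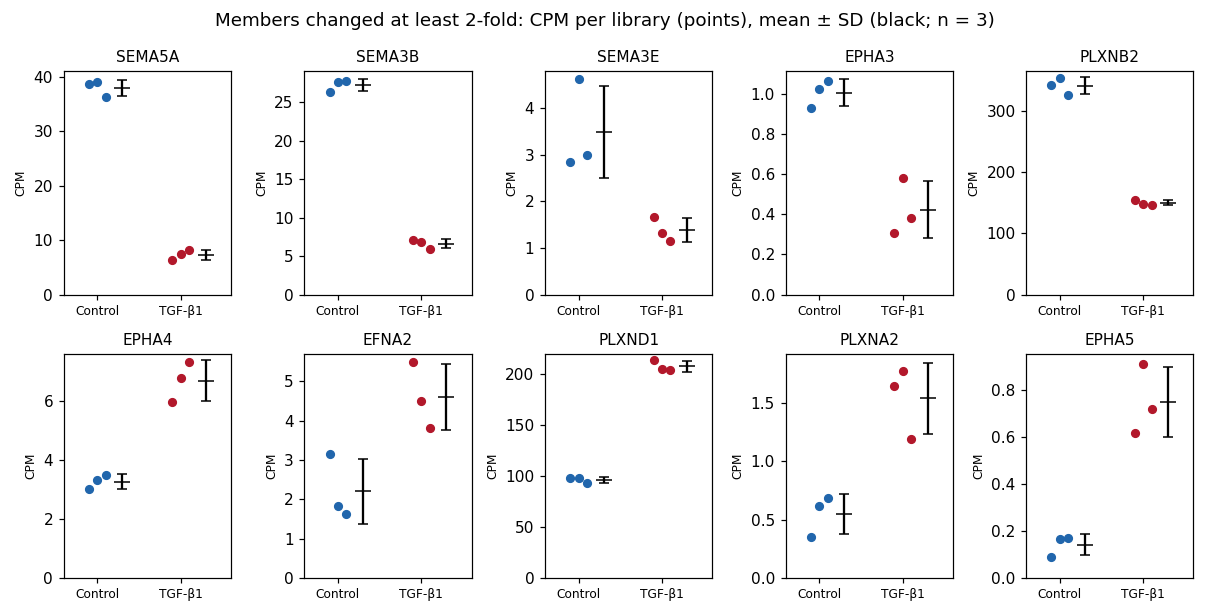
CPM (y axis, from 0) of the 10 members changed at least 2-fold, in each of the 3 control (blue) and 3 TGF-β1 (red) libraries, with the mean ± SD in black. The groups do not overlap for any of the 10 members, which were chosen by their change in these same libraries, so the separation is not a separate result. Over all genes tested 55.6% did not overlap. EPHA5, PLXNA2 and EPHA3 lie below 2 CPM.

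The sequence before the start site is shown for 4 of these members, the 2 falls and the 2 rises with the most reads among those whose RefSeq start coincides with the 5′ end of the deposited gene. They are compared here in base composition and in short motifs of factors known to act in TGF-β responses. RefSeq (GRCh38.p14) gave a window for 47 of the 53 members, and 29 of these windows started at the deposited 5′ end. The 250 bases before the start were searched on both strands for CAGAC (a SMAD half-site), CACCTG (an E-box read by SNAIL factors among others) and TGACTCA (an AP-1 site). Capitals mark a match in either orientation. The windows are chr3:50267402-50267651 on the plus strand for SEMA3B, chr7:83649140-83649389 on the minus strand for SEMA3E, chr3:129606677-129606926 on the minus strand for PLXND1 and chr2:221574203-221574452 on the minus strand for EPHA4.
SEMA3B: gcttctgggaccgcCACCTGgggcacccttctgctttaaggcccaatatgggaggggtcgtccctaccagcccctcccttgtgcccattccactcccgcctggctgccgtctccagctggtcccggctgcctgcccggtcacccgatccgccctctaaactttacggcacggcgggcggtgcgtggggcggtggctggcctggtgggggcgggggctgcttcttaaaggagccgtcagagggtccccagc
SEMA3E: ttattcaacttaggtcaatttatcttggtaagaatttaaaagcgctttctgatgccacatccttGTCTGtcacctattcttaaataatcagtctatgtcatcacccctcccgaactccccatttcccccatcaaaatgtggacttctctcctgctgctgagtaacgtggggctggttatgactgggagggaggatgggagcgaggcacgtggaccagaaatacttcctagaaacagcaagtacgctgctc
PLXND1: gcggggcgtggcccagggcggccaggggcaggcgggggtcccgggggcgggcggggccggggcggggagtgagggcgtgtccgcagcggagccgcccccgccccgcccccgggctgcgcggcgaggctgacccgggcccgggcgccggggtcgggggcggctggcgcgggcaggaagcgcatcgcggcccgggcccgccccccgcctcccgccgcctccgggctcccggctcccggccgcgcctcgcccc
EPHA4: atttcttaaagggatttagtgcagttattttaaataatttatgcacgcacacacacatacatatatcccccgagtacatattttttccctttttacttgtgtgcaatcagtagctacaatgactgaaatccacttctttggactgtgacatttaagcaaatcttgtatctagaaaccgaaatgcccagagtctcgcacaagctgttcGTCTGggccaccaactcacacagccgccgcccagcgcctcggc
The SEMA3B window held an E-box, and the SEMA3E and EPHA4 windows each held a SMAD half-site. The PLXND1 window held none of the 3 motifs, and 88.8% of its bases were G or C, against 43.2% for EPHA4. A SMAD half-site lay in 3 of 11 windows of members called higher and in 4 of 13 of those called lower, and in 38.0% of all 35116 windows. For members only the window closest to the deposited 5′ end was used, while the 35116 were not chosen in that way. Among the hits in members called lower, the windows of SEMA6C and PLXNB2 lay 1777 and 5977 bases from that end. An E-box lay in 0 of the 11 and in 4 of the 13, against 17.5% of all windows. An AP-1 site lay in none of the 47, against 4.20% of all windows. The ends of CAGAC and CACCTG can share bases, no 2 matches overlap in the windows printed, and a match is only a run of letters.

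More semaphorins fell than rose, but the most abundant member rose. SEMA3C, a secreted class 3 semaphorin known for guiding neural crest cells and endothelium (chromosome 7, 80742538 to 80922389), had 340.4, 358 and 348 CPM in control against 582, 648 and 659.7 with TGF-β1. Every TGF-β1 library lay above every control library. The log2 fold change was 0.85 ± 0.06 (SE, edgeR adjusted p 1.0e-06). Elsewhere ± is likewise the SE of a log2 fold change, and the SD over 3 libraries of a level. The second by level, SEMA4B (chromosome 15, 90184920 to 90229661), a membrane-bound class 4 semaphorin, went the other way. It had 47.7, 46.2 and 40.5 CPM in control against 25.5, 22.9 and 20.7 with TGF-β1, without overlap, a log2 fold change of -0.96 ± 0.09 (edgeR adjusted p 8.6e-06).

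The largest falls were in SEMA5A and SEMA3B. SEMA5A, a membrane-bound semaphorin with thrombospondin repeats (chromosome 5, 9035030 to 9546121), had 38.6, 39.1 and 36.4 CPM in control against 6.34, 7.40 and 8.16 with TGF-β1. The mean fell from 38.0 ± 1.5 to 7.30 ± 0.92 CPM (SD, n = 3), which was 5.23-fold lower in the fit. The groups were far apart, with a log2 fold change of -2.39 ± 0.09 (edgeR adjusted p 7.7e-09). Its antisense gene SEMA5A-AS1 had 12 reads in control against 3 with TGF-β1, too few to move this value. SEMA3B, a secreted semaphorin known as a candidate tumour suppressor (chromosome 3, 50267652 to 50277546), had 26.3, 27.6 and 27.7 CPM in control against 7.14, 6.78 and 5.97 with TGF-β1. Its log2 fold change was -2.03 ± 0.08 (edgeR adjusted p 1.2e-08), a 4.09-fold fall. SEMA3F, another secreted class 3 semaphorin that binds NRP2, ends 78576 bases before SEMA3B on the same chromosome. It had 12.6, 11.7 and 11.3 CPM in control against 15.6, 14.3 and 12.0 with TGF-β1, which overlapped, and it was not called (0.24). Leaving out TGF-β1 replicate 3 brought a call, at 0.33.

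SEMA3E and SEMA3A are neighbours on chromosome 7, with 306637 bases between them, and both fell. SEMA3E (83363238 to 83649139), which binds PLXND1 without needing a neuropilin, had 2.84, 4.62 and 2.98 CPM in control against 1.65, 1.32 and 1.15 with TGF-β1. Control replicate 2 was the highest library, and the groups did not overlap. The log2 fold change was -1.33 ± 0.23 (edgeR adjusted p 0.00088), and it ranged from -1.50 to -1.07 over the 14 alternatives. SEMA3A, the classical repellent of axons that signals through NRP1, fell from 2.49 ± 0.20 to 1.28 ± 0.35 CPM, with a log2 change of -0.96. The third gene of this stretch, SEMA3D, had 1, 2 and 1 reads in control against none with TGF-β1, below the count filter.

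The other called semaphorins were membrane-bound. SEMA4C, a ligand of PLXNB2, rose by 0.42 on the log2 scale, from 30.4 ± 1.6 to 40.6 ± 0.76 CPM. SEMA6B fell by 0.76, SEMA4F by 0.58 and SEMA4A by 0.86, the last with only 12 to 28 reads in any library. SEMA4D, a ligand of PLXNB1, had a log2 fold change of -0.16, and SEMA6C had -0.37. These 2 calls and that of SEMA4A were lost under DESeq2. Without 1 library SEMA4A lost its call for control replicate 2 (-0.93) or 3 (-0.66) and TGF-β1 replicate 1 (-0.78) or 2 (-0.82). SEMA4D lost it for control replicate 1 (-0.13) or 3 (-0.16) and TGF-β1 replicate 2 (-0.18) or 3 (-0.16). SEMA6C lost it for control replicate 1 (-0.40), 2 (-0.31) or 3 (-0.39) and TGF-β1 replicate 2 (-0.37) or 3 (-0.34). With DESeq2, 7 semaphorins were therefore called lower in place of 10. Where every gene with a read was fitted, SEMA4D (-0.15) and SEMA6C (-0.36) also lost their calls, and 8 were called lower. SEMA6A and SEMA4G were not called, at -0.35 and 0.27, and SEMA6A was called with total counts only (-0.46). SEMA4G shares 7799 bases of its span with MRPL43 on the other strand, which had 3487 reads in control, and the strand of counting is not stated. SEMA4D likewise shares 6331 bases with SECISBP2 on the other strand, which had 4415 reads in control against 4284 for SEMA4D.

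The summed semaphorin level moved against the count of members, and SEMA3C was its largest term. Levels of different genes were compared in TPM, the deposited value per gene length. The median gene stood 0.11 lower on the log2 scale after TGF-β1 in TPM, so directions of summed levels are given with the TMM-scaled CPM per kb beside them. SEMA3C made up 63.4% ± 0.91 of semaphorin TPM in control against 82.5% ± 1.7 with TGF-β1 (SD, n = 3). The summed semaphorin TPM was 351, 368 and 362 in control against 421, 482 and 479 with TGF-β1, which is 1.28-fold (1.39-fold in CPM per kb). Without SEMA3C the sum was 132, 134 and 130 in control against 81.4, 82.3 and 77.1 with TGF-β1, or 0.608-fold (0.661-fold in CPM per kb). Neither pair of groups overlapped. After SEMA3C the order of levels in control was SEMA4B at 36.1 ± 2.4, SEMA3B at 25.9 ± 1.2, SEMA4C at 18.9 ± 0.75 and SEMA4D at 14.1 ± 0.60 TPM. After TGF-β1 it was SEMA4C at 23.3 ± 0.82, SEMA4B at 17.1 ± 1.4, SEMA4D at 11.6 ± 0.50 and SEMA3F at 8.98 ± 1.0, and SEMA3B stood at 5.81 ± 0.45. SEMA7A entered these orders at 0 from its primary row. Its second entry, described below, stood at 2.80 ± 1.6 TPM in control against 12.9 ± 8.4 after TGF-β1.

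**Figure D3:**
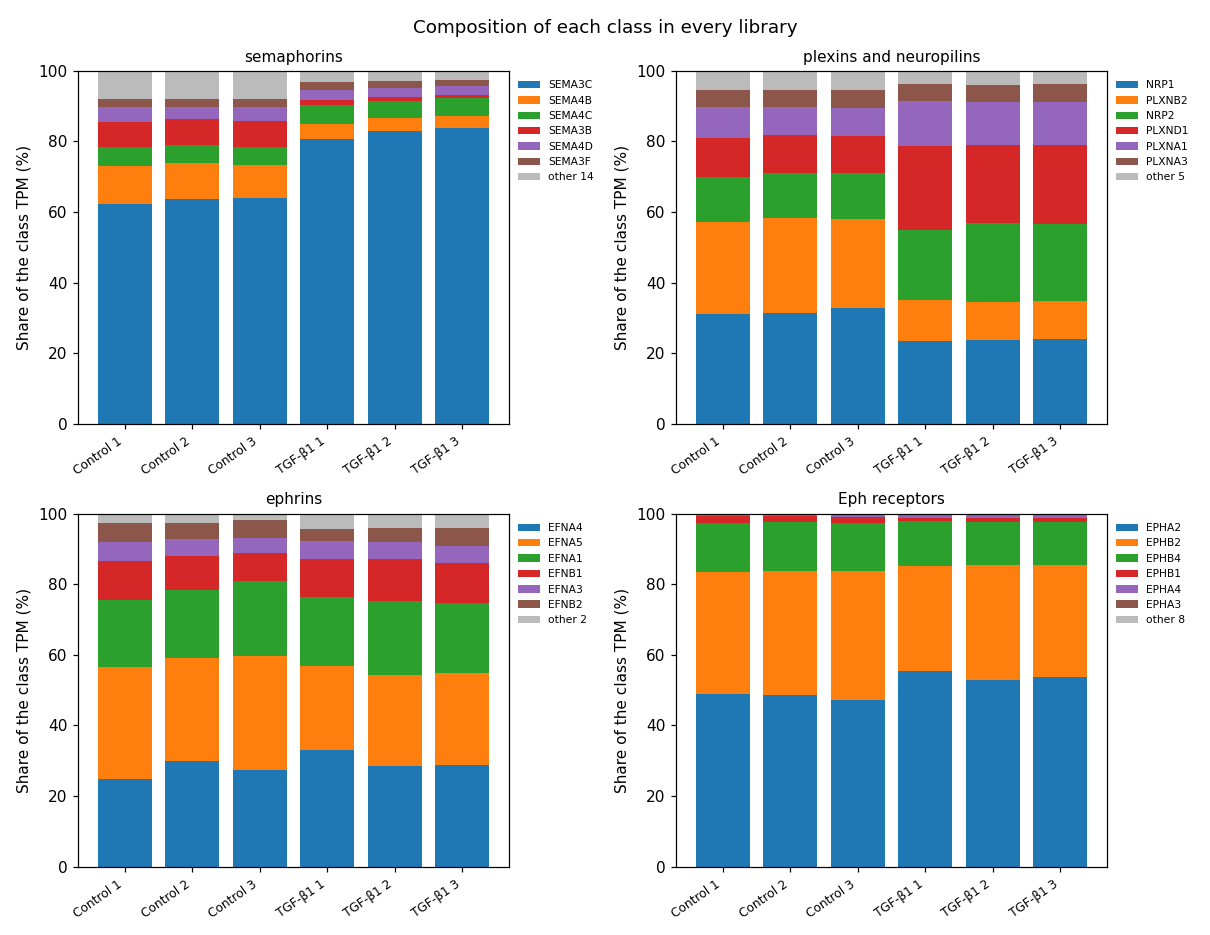
Share of the summed TPM of each class (y axis, percent, from 0 to 100) held by its 6 most abundant members and by the rest, in each of the 6 libraries (x axis). SEMA3C takes 63.4% of semaphorin TPM in control against 82.5% with TGF-β1, PLXNB2 goes from 26.0% to 11.1% of its class and PLXND1 from 10.8% to 22.7%, and EPHA2 and EPHB2 lead the Eph receptors in every library.

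Among the receptors of semaphorins, the subfamilies split. All 3 PLXNB plexins fell, namely PLXNB1 and PLXNB2, receptors of class 4 semaphorins, and PLXNB3, a receptor of SEMA5A. PLXNA1, PLXNA2 and PLXND1 rose, but PLXNA3 was not called (0.00). PLXNB2 (chromosome 22, 50274979 to 50307646), the most abundant plexin in control, had 344, 355 and 327 CPM in control against 155, 148 and 147 with TGF-β1. Its log2 fold change was -1.19 ± 0.05 (edgeR adjusted p 2.8e-08), without overlap. PLXNB1 fell from 32.5 ± 1.6 to 19.3 ± 1.9 CPM, with a log2 change of -0.76, and PLXNB3 had -0.32. A locus on the other strand of PLXNB3, LOC102723591, was itself called at -0.65, with 306 reads in control. The summed TPM of the 3 PLXNB genes went from 130.4 ± 3.5 to 58.1 ± 1.5, or 0.446-fold (0.484-fold in CPM per kb).

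PLXND1, a plexin known from vascular patterning (chromosome 3, 129555214 to 129606676), had 98.1, 98.0 and 93.0 CPM in control against 213, 205 and 204 with TGF-β1. The groups lay far apart, at 96.4 ± 2.9 and 207 ± 5.4 CPM (SD, n = 3), with a log2 fold change of 1.11 ± 0.05 (edgeR adjusted p 3.6e-08). The order of plexin levels changed. In control PLXNB2 came first at 109 TPM and PLXND1 second at 45.3, and after TGF-β1 PLXND1 came first at 89.8, followed by PLXNA1 at 49.1 and PLXNB2 at 44.1. The TPM ratio of PLXNB2 to PLXND1 was 2.38, 2.46 and 2.39 in control against 0.492, 0.491 and 0.491 with TGF-β1. PLXNA1, which pairs with neuropilins for class 3 semaphorins, rose by 0.63 on the log2 scale from 96.4 ± 6.6 to 149 ± 1.1 CPM. PLXNA2 (chromosome 1, 208022242 to 208244384), of the same subfamily, rose by 1.48 ± 0.28 (edgeR adjusted p 0.0015) at low counts, with 8, 15 and 16 reads in control against 43, 43 and 25 with TGF-β1. Only 2 control libraries reached the count of the filter, against 3 with TGF-β1, so this call is not support for the class. PLXNA3 was not called, with 71.8, 71.1 and 72.4 CPM in control against 72.5, 71.0 and 72.5 with TGF-β1. Its log2 fold change was 0.00 ± 0.05, and -0.10 with total counts only. PLXNC1, the plexin of SEMA7A, was not called (-0.19, and 0.04 without control replicate 3), and it lies across from CEP83 over 42024 bases. PLXNA4 had no read in control against 2, 4 and 6 reads with TGF-β1. It was under the filter. Against a floor of 3 reads over the control group, its 12 reads with TGF-β1 were 3.68-fold higher by total counts. That value leaves out the counting error of the 12 reads. Where every gene with a read was fitted PLXNA4 was called, which made 5 plexins and neuropilins higher. Its reads lay only in the TGF-β1 libraries, so this call is not support for the class.

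The neuropilins moved apart. NRP1 (chromosome 10, 33177493 to 33334667), a co-receptor of SEMA3A and of VEGF, had 241, 244 and 248 CPM in control against 182, 190.0 and 188 with TGF-β1. Its log2 fold change was -0.39 ± 0.05 (edgeR adjusted p 8.3e-05). NRP2, a co-receptor of SEMA3F and SEMA3C, had 264, 267 and 265 CPM in control against 417, 480.4 and 463 with TGF-β1, a log2 fold change of 0.77 ± 0.06 (edgeR adjusted p 2.2e-06). In TPM the ratio of NRP1 to NRP2 was 2.49 ± 0.036 in control against 1.12 ± 0.055 with TGF-β1, without overlap. Their sum overlapped between groups, at 188 ± 5.4 and 179 ± 13 TPM.

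Ligands were then set against receptors in the semaphorin system. The summed TPM of plexins and neuropilins was 415, 423 and 422 in control against 378, 411 and 401 with TGF-β1. This was 0.944-fold with TGF-β1 below control in TPM, but 1.02-fold with TGF-β1 above control in CPM per kb, so its direction depended on the scaling. The ratio of semaphorins to plexins and neuropilins was 0.846, 0.870 and 0.857 in control against 1.11, 1.17 and 1.20 with TGF-β1. It was 1.35-fold higher after TGF-β1, without overlap. A ratio within a library is the same under both scalings by construction, so the scaling is no check on it. With the most abundant member of each class left out, SEMA3C and NRP1, the ratio changed 0.576-fold.

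The pairs of ligand and receptor named here were also set side by side, as log2 fold changes. SEMA3E fell (-1.33) while its receptor PLXND1 rose (1.11), and their TPM ratio went from 0.0346 ± 0.0093 to 0.00634 ± 0.0010. SEMA4C rose (0.42) while PLXNB2 fell (-1.19). SEMA5A and its receptor PLXNB3 both fell (-2.39 and -0.32). SEMA3C and NRP2 both rose (0.85 and 0.77), and SEMA3A and NRP1 both fell (-0.96 and -0.39). NRP1, the neuropilin of higher TPM in both groups, thus moved against SEMA3C. The pairs listed here are not every pair of these families. SEMA4D and PLXNB1 were both called lower (-0.16 and -0.76), and SEMA3F was not called (0.24) while NRP2 rose (0.77).

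**Figure D4:**
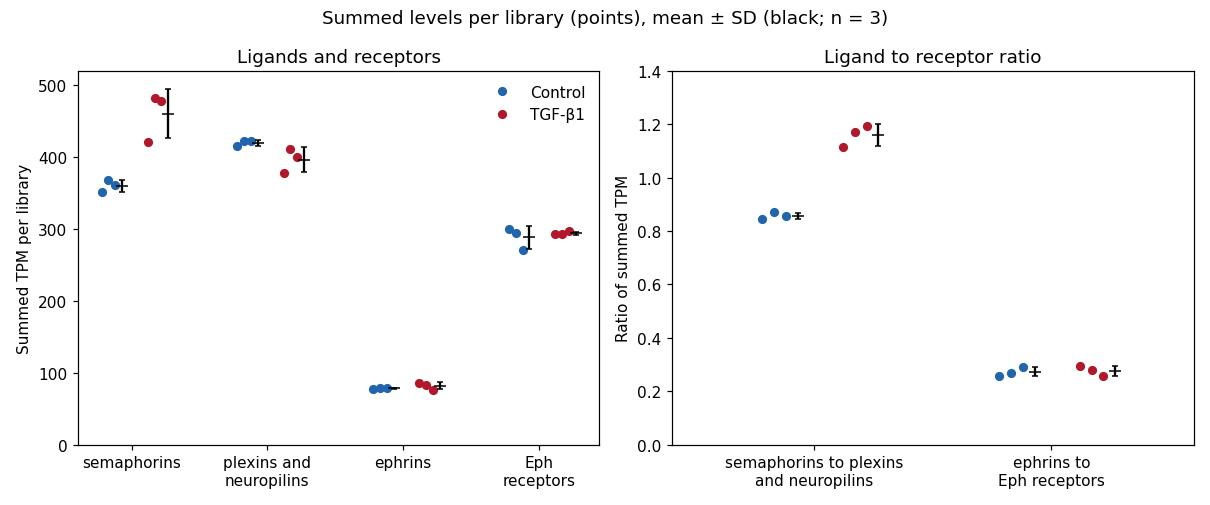
Left, summed TPM (y axis, from 0) of each of the 4 classes, and right, the ratio of summed ligand TPM to summed receptor TPM in the 2 systems, for the 3 control (blue) and 3 TGF-β1 (red) libraries, with the mean ± SD in black. The semaphorin ratio goes from 0.858 in control to 1.16 after TGF-β1 without overlap, and the ephrin ratio overlaps between groups at 0.273 and 0.277.

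Few ephrins passed the test. The 2 most abundant were not called. EFNA5, a GPI-anchored ephrin (chromosome 5, 107376889 to 107670937), had 65.7, 61.6 and 65.9 CPM in control against 61.0, 59.8 and 56.4 with TGF-β1. All TGF-β1 libraries were lower, by little, and the log2 fold change was -0.12 ± 0.06. It was called with total counts only (-0.23) and without TGF-β1 replicate 1 (-0.16). EFNA4, another GPI-anchored ephrin (chromosome 1, 155063740 to 155069553), had 7.40, 8.95 and 7.93 CPM in control against 12.0, 9.43 and 8.93 with TGF-β1. TGF-β1 replicate 1 was the highest library, and the groups overlapped. Its log2 fold change was 0.32 ± 0.13, and it was called without TGF-β1 replicate 3 (0.40) and where every gene with a read was fitted (0.33). EFNA3 and EFNA1, which follow EFNA4 on chromosome 1 with gaps of 9283 and 40337 bases, were not called at 0.23 and 0.19.

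EFNA2 was the ephrin that rose at least 2-fold. It is a GPI-anchored ephrin (chromosome 19, 1282817 to 1301431) and had 3.15, 1.84 and 1.62 CPM in control against 5.49, 4.51 and 3.82 with TGF-β1. In both groups replicate 1 was the highest library, and the groups did not overlap. The log2 fold change was 1.07 ± 0.25 (edgeR adjusted p 0.0058), from 0.89 to 1.41 over the 14 alternatives. EFNB1, a transmembrane ephrin with a role in craniofacial development, rose by 0.42 from 7.40 ± 1.3 to 9.89 ± 0.63 CPM. Its call was lost with total counts only (0.31) and on leaving out replicate 2 (0.43) or 3 (0.30) of control or replicate 2 of TGF-β1 (0.39). EFNB2, the ephrin of arteries, had -0.13 and was called without TGF-β1 replicate 3 (-0.27). EFNB3 had 3, 20 and 9 reads in control against 18, 15 and 16 with TGF-β1. It was not called at 0.61, and without control replicate 2 it was called at 1.39.

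Eph receptors were dominated by EPHA2 and EPHB2. EPHA2, a receptor of EFNA1 known from epithelial cells (chromosome 1, 16124337 to 16156104), had 191, 184 and 161 CPM in control against 234, 212 and 220.0 with TGF-β1. The groups did not overlap, and the rise was small at 0.31 ± 0.07 (edgeR adjusted p 0.0043). EPHB2, a receptor of ephrin-B ligands (chromosome 1, 22710770 to 22921500), had 361, 356 and 331 CPM in control against 332, 347 and 346 with TGF-β1. The groups overlapped, with a log2 fold change of -0.03 ± 0.05. It was called with total counts only, at -0.14. EPHB4, the venous receptor of EFNB2, was also not called, with 52.1 ± 4.1 and 51.9 ± 2.6 CPM. EPHB4 shares 655 bases of its span with SLC12A9 on the other strand, and that gene was called at -0.30. EPHA2, EPHB2 and EPHB4 together with EPHB1 stood at 139 ± 10, 102 ± 3.0, 39.3 ± 2.4 and 5.23 ± 0.47 TPM in control, and the 10 other Eph receptors were each under 2 TPM.

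The larger Eph changes were in members of low level. EPHA4, which binds ephrins of both classes (chromosome 2, 221418027 to 221574202), had 3.01, 3.31 and 3.49 CPM in control against 5.99, 6.78 and 7.35 with TGF-β1. This was a log2 fold change of 1.03 ± 0.13 (edgeR adjusted p 0.00011), without overlap. EPHA5, an Eph receptor best known from neurons (chromosome 4, 65319567 to 65670489), had 2, 4 and 4 reads in control against 16, 22 and 15 with TGF-β1. Its log2 fold change was 2.35 ± 0.39 (edgeR adjusted p 0.00064). It passed the count filter only through the TGF-β1 libraries, so its call is not support for the class. EPHA3 (chromosome 3, 89107621 to 89482134), a receptor of EFNA5, moved the other way, with 21, 25 and 25 reads in control against 8, 14 and 8 with TGF-β1. The log2 fold change was -1.24 ± 0.29 (edgeR adjusted p 0.0055). All 3 control libraries of EPHA3 reached the count of the filter but only 1 TGF-β1 library did, so its call is not support for the class. EPHB1 fell from 7.35 ± 0.77 to 4.95 ± 0.31 CPM, with a log2 change of -0.57. EPHA6, at 11 to 19 reads a library, was not called (-0.43). With a filter of a mean of at least 50 counts, EPHA3 was not tested and 1 Eph receptor was called lower.

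In the ephrin system the ratio of all ligands to all receptors overlapped between the groups. Summed ephrin TPM was 77.3, 79.3 and 78.5 in control against 86.1, 82.3 and 76.3 with TGF-β1. Summed Eph TPM was 299.7, 294 and 270.4 in control against 292, 293 and 296 with TGF-β1. The ratio was 0.273 ± 0.016 and 0.277 ± 0.019, and it overlapped. In CPM per kb both sums were higher after TGF-β1 without overlap, 1.13-fold and 1.11-fold. Their ratio, 1.02-fold, cannot change with the scaling of a library. With EFNA4 and EPHA2 left out, the members of the highest mean over all libraries, the ratio still overlapped, at 0.382 ± 0.016 and 0.422 ± 0.024. With EFNA5, the most abundant ephrin in control, left out in place of EFNA4, it was 0.346, 0.371 and 0.373 in control against 0.504, 0.442 and 0.413 with TGF-β1, without overlap. Whether this ratio separates the groups therefore depends on which members are summed. Within the receptors, summed EphA TPM went from 142 ± 9.9 to 163 ± 3.3, or 1.15-fold without overlap (1.25-fold in CPM per kb), and EPHA2 alone from 139 ± 10 to 159 ± 3.6 TPM. Summed EphB TPM was 0.896-fold with TGF-β1 below control, and it overlapped at 0.972-fold in CPM per kb. EFNA1 and EPHA2, a known pair, had 0.19 (not called) and 0.31 (called), and EFNB2 and EPHB4 had -0.13 and -0.01, neither called. EFNA5 and EPHA3 had -0.12 (not called) and -1.24 (called).

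Members under the filter were mostly close to 0. SEMA5B, SEMA7A and EPHA8 had 0 reads on their primary rows in all 6 libraries, which allows up to 3 reads over each group, or 0.044 CPM of total counts in control against 0.040 with TGF-β1. SEMA3G, SEMA6D, EPHA1, EPHA7 and EPHB6 had at most 2 reads in any library. EPHB3 had 5, 2 and 2 reads in control against 8, 3 and 4 with TGF-β1. EPHA10 had 9, 4 and 3 reads in control against 1, 1 and 2 with TGF-β1. For SEMA7A, a GPI-anchored semaphorin known from immune cells and fibrosis, the reads lay on a second entry. That entry, a copy of the gene on a patch of the reference, had 101, 27 and 76 reads in control against 424, 107 and 490 with TGF-β1. Replicate 2 was the lowest library in both groups, and the groups overlapped. The log2 fold change was 2.32 ± 0.86 and was not called (edgeR adjusted p 0.0994). EPHA1 and EPHB6 also have second entries, with 0 reads.

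Genes that work with these families were examined as lists. In a list of 26 semaphorin signalling genes, 23 were tested, 7 were called higher and 8 lower, or 65.2% against 44.3% of all genes tested. FURIN, the protease that cleaves class 3 semaphorins, rose from 45.2 ± 1.3 to 134 ± 8.6 CPM, with a log2 change of 1.57 ± 0.06. RHOD rose by 1.01, and L1CAM, a co-receptor that binds NRP1, fell by 1.07, from 411 ± 19 to 195 ± 14 CPM. In a list of 24 Eph signalling genes, 21 were tested, 4 were called higher and 7 lower, or 52.4% against the same 44.3%. RASA1, a Ras GTPase-activating protein bound by Eph receptors, rose by 1.33 ± 0.08, from 78.2 ± 3.2 to 197 ± 22 CPM. VAV3 and KALRN, guanine nucleotide exchange factors, fell by 1.87 ± 0.26 and 1.04 ± 0.10. The medians of both lists, -0.12 and -0.02, were near that of all genes.

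Genes of other guidance systems were listed as well, and no test of these short lists was made. Among 12 further cues, 7 were tested, 3 were called higher and 2 lower (71.4%, against 44.3% of all genes tested), and NTNG1, a membrane-bound netrin, fell by 1.07, from 48.3 ± 1.6 to 23.0 ± 0.48 CPM. Among 11 further receptors, 7 were tested, 4 were called higher and 2 lower (85.7%). UNC5B, a receptor of netrin, rose by 2.11 ± 0.32 from 0.421 ± 0.15 to 1.83 ± 0.51 CPM, ROBO4 rose by 1.38 and UNC5C by 1.06. All 3 were below 5 CPM in every library.

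The libraries held 21.9 to 26.9 megacounts each. TGF-β1 replicate 1 stood apart from replicates 2 and 3, with a chi-square per degree of freedom over genes of 18.0 and 16.6 against 4.20 to 5.86 for the other pairs within a group, and without it all of the 10 members changed 2-fold stayed called in their direction. All 6 of the TGF-β response genes checked rose, from FN1 at 0.98 to COL1A1 at 3.30. Of 10 epithelial markers 9 were at a mean of 1 TPM or more and CDH1 had at most 3 reads, but only 3 of 11 proximal tubule markers reached that level, and LRP2 and SLC22A6 had 0 reads. All 9 epithelial markers tested were called, 4 higher and 5 lower. Those changed at least 2-fold were KRT7 (2.35) and CDH2 (1.05), higher, and KRT19 (-1.34), CDH16 (-1.27) and EPCAM (-1.25), lower. Proximal tubule markers summed to 83.1 to 99.3 TPM in control against 53.7 to 62.7 with TGF-β1, mostly GGT1. The summed TPM of 6 endothelial markers was 0.834 to 1.53 in control against 0.062 to 0.191 with TGF-β1, of 5 fibroblast markers 72.2 to 86.7 and 58.9 to 63.0, of 5 leukocyte markers 189 to 202 and 112 to 149, and of 5 neuron markers 35.8 to 39.0 and 41.2 to 44.7. Of these 21 markers, 8 had at most 2 reads in any library, among them PTPRC, CD3E, STMN2, PDGFRA and KDR. Only 9 were tested, and 3 of them were called higher and 6 lower, against 44.3% called of all genes tested. The fibroblast sum was mostly LUM (77.0 TPM in control against 58.5 with TGF-β1), and within that list PDGFRB rose by 3.38 on the log2 scale, from 0.551 ± 0.094 to 5.79 ± 0.43 CPM, while THY1 fell by 1.72. The leukocyte sum was mostly CD68 (189 against 127 TPM), and CD14 fell by 1.72. Among neuron markers SYT1 rose by 1.13 and NEFL by 1.12, and SNAP25 fell by 0.77. CDH5, an endothelial cadherin, had 62 reads in control against 0 with TGF-β1. Both CDH5 and THY1 passed the count filter only through the control libraries. The part of these markers in the results was not tested. In bulk RNA, fewer cells that express a gene and less RNA per cell cannot be told apart.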

How the data were processed

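RNA from HK-2 cells was measured in 3 control and 3 TGF-β1 libraries at 24 hours, grouped by the treatment in their labels. Poly(A) RNA was captured on oligo(dT) beads, primed with random hexamers and sequenced. Per the submitters' processing notes, CASAVA, featureCounts 2.0.1 and DESeq2 1.16.1 were used with build hg38. The aligner and the strand of counting are not given in the sources used here. The authors deposited a raw read count, a TPM and an FPKM for each gene. The deposited TPM and FPKM were recomputed from counts and lengths and differed by at most 3.6e-06, and FPKM was not used further. Each table held 42095 entries, and 598 without a name (0.396% to 0.464% of counts) were left out. Another 7 records broken over lines were rejoined.

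Members were the 53 listed symbols, on primary chromosomes. The members and lists were chosen with earlier results of these data known. Genes passing filterByExpr (minimum count 10) in edgeR 4.0.16 were scaled by TMM and compared by the two-sided quasi-likelihood F test with robust dispersion, adjusted by Benjamini-Hochberg over 14860 genes. The SE is the log2 fold change divided by the root of F. Values in every library are given for members changed 2-fold and for the 2 most abundant of each class, and by choice after seeing values for NRP2, SEMA3F, PLXNA3, EFNB3, EPHB3, EPHA10, PLXNA4 and SEMA3D. Listed genes outside the families are named if called and changed at least 2-fold. With 3 libraries against 3 an exact permutation test cannot go below 0.1, so summed levels carry no test. No 2 libraries of a group were alike within sampling noise. Counting floors cover counting error only, since PCR copies cannot be told from separate molecules. Depth was 21.9 to 26.9 megacounts (M) a library.

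Alternatives were DESeq2 1.42.0, limma-voom (limma 3.58.1), RLE size factors, total counts only, other filters, glmTreat, entries of a name summed, blocking on replicate number, and fits without 1 library each. Taking SEMA7A from its patch entry was added after seeing the data. The fitting scripts were tested on simulated data. Leaving EFNA5 and EPHA2 out of the ephrin sums was also added after seeing the data. Software was R 4.3.3, Python 3.11.15, pandas 2.3.3, numpy 2.4.6 and matplotlib 3.10.9.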

Additional observations from a re-analysis of the deposited data

Results flagged for a closer look

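The files list 4 loci without a name within 100 kb of a member, which no comparison above used. In 1 of them all TGF-β1 libraries lay above all control libraries. This locus is near EFNA1 on chromosome 1, at 155231219 to 155234253, and had 2.35, 2.17 and 1.79 CPM in control and 3.65, 5.67 and 2.63 after TGF-β1. Its mean went from 2.10 to 3.98 CPM, against 7.26 ± 0.37 and 8.31 ± 0.59 CPM for EFNA1 itself. What is transcribed there was not tested. In 2 others all TGF-β1 libraries lay below all control libraries. Over all named genes tested the groups did not overlap for 55.6%, so these counts of loci are not read as a result. The locus near PLXNB3, on chromosome X at 153760848 to 153761423, had 1.55, 1.55 and 1.79 CPM in control and 0.730, 0.910 and 0.764 after TGF-β1, and the second locus near EFNA1, at 155214121 to 155217420, had 1.55, 1.76 and 1.58 CPM in control and 1.46, 1.28 and 1.48 after TGF-β1. The locus near EFNB1 overlapped between groups, at a mean of 6.79 and 6.89 CPM.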

How the results depend on the processing

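Of the 27 called members, 23 kept their direction and call in every alternative run for them, and SEMA4A, SEMA4D, SEMA6C and EFNB1 did not. Over the 41 members and 14 alternatives, 523 of 566 values kept direction and side of the threshold, 23 lost a call, 9 gained one and 11 changed sign. The sign changes were in PLXNA3, PLXNC1 and EPHB4, none of them called in any alternative. PLXNA3 had -0.10 with total counts only, -0.02 with a mean of at least 50 counts and -0.01 to 0.01 without 1 library. Without 1 library PLXNC1 had -0.35 to 0.04 and EPHB4 -0.07 to 0.04, and EPHB4 had 0.00 where every gene with a read was fitted. With total counts only, 2134 genes were called higher and 4590 lower, the median gene moved to -0.101 on the log2 scale, and ephrins had 1 member called higher and 1 lower. With a mean of at least 50 counts, 1 Eph receptor was called lower. With glmTreat, 657 genes and 4 members were called in place of 1347 and 10. Without 1 library, ephrins had 1 to 3 members called higher and 0 to 1 lower. Without the most abundant member of each class, the fold of the summed TPM was 0.608 for semaphorins, 1.06 for plexins and neuropilins and 0.907 for Eph receptors, and the semaphorin ratio was 0.576-fold. With EFNA5 and EPHA2 left out, ephrins were 1.13-fold, Eph receptors 0.907-fold and their ratio 1.25-fold. In TMM-scaled CPM per kb the folds were 1.39 for semaphorins, 1.02 for plexins and neuropilins, 1.13 for ephrins and 1.11 for Eph receptors. The cause of these shifts was not tested beyond the construction of each alternative. With SEMA7A from its patch entry the semaphorin sum was 1.30-fold and the ratio 1.38-fold.

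The replicate numbers were not taken as pairing the libraries. The correlation of deviations was 0.111, -0.012 and 0.076 for equal numbers, and not every library correlated best with its own number. With the replicate block 3396 genes were called higher and 3394 lower, and 9 semaphorins lower, since SEMA6C lost its call. The main limit of depth is on EPHA6, EFNB3, EPHA5 and EPHA3, tested with at most 25 reads in any library.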
